A study of Mus musculus with 2 samples.

Results

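The cells described here are mostly haematopoietic progenitors with a low level of neutrophil granule RNA, in the library labelled ST-HSC (short-term haematopoietic stem cells). They were chosen by their own counts: at least 1000 genes detected, under 10% of unique molecular identifiers (UMIs, 1 per captured RNA molecule) from mitochondrial genes, and 2 to under 20 UMIs of Mpo, Elane and Ctsg together per 10000 UMIs of the cell. Cells with 3 or more Dntt UMIs or 10 or more Car1 UMIs per 10000 were left out, since these mark lymphoid and erythroid priming. The rule gave 468 members of 6648 kept cells of the library, or 7.04% (exact Clopper-Pearson 95% interval 6.44 to 7.68%), and of 9370 kept cells in both libraries. They are set against 4633 cells of the library under 2 per 10000 and against 217 cells at 20 or more, both with the same Dntt and Car1 limits. In the library labelled LT-HSC, 0 of 2722 kept cells met the rule, which allows a share of up to 0.110%, and all its kept cells together held 5 Mpo, 11 Elane and 6 Ctsg UMIs.

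Neutrophils carry azurophil granules, filled while the cell is still a progenitor in the bone marrow. Mpo encodes myeloperoxidase, the granule enzyme that makes hypochlorous acid, and Elane, Ctsg and Prtn3 encode the serine proteases neutrophil elastase, cathepsin G and proteinase 3. Granule transcription is known to begin in multipotent progenitors under Cebpa, Spi1 and Runx1, before stem cell genes such as Hlf and Mecom are silent, and to reach its peak in granulocyte-monocyte progenitors and promyelocytes.

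Wild-type C57Bl6 mice, by the series title 8 weeks of age, gave the bone marrow for both libraries, which were made with the 10x Genomics 3' v2 kit. The ST-HSC gate took LSK cells (without lineage markers, with Sca-1 and Kit) that lacked CD34 and carried CD150 and CD48, and the LT-HSC gate took LSK cells with CD150 but without CD34, CD48 and Flk2. There was 1 library per gate, the number of mice is not given in the sources used here, and no difference below has a replicate check. A level is the summed UMI count of a gene in a group over all UMIs of that group, in the usual CPM unit, and every interval is a 95% interval that covers counting error only. A gene is called higher or lower by size alone, at 1.5-fold or more in summed level, with no p-value.

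The RNA did not follow the gate in several points. Although the gate took cells without lineage markers, 7 members lay in a cluster led by Skap1 with T and NK genes. A further 11 members lay in a cluster led by Igkc with dendritic genes, and 3 in a cluster led by Mcpt2 and C1qb. Cd34, absent as protein by the gate, was at 327 CPM in the members, 256 CPM in cells under 2 and 182 CPM in cells at 20 or more. Slamf1, which encodes CD150, had 11 UMIs in all members together, or 1.12 CPM, against 1.59 CPM in cells under 2 and 0 in cells at 20 or more. The libraries share 8 barcodes, and 0 of the members carry one of them. Depth differed between the groups: members had a median of 18842 UMIs and 5063.5 genes, cells under 2 had 11699 UMIs and 3955 genes, and cells at 20 or more had 28828 UMIs and 5554 genes. The median mitochondrial share was 3.41% in members, 3.48% in cells under 2 and 3.36% in cells at 20 or more.

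The promoters of the rule genes are shown because, of the rule genes, Mpo and Ctsg gave nearly all of the members' UMIs and Elane few. Each runs 5′ to 3′ over 300 bases, from 250 before to 50 after the RefSeq transcript start (GRCm38.p6), at chr11:87793534-87793833 on the plus strand for Mpo, chr14:56102525-56102824 on the minus strand for Ctsg and chr10:79886062-79886361 on the plus strand for Elane. Capitals mark GAGGAA, an ETS-type core, and TGTGGT, a RUNX-type core, on either strand (TTCCTC and ACCACA on the other).
Mpo: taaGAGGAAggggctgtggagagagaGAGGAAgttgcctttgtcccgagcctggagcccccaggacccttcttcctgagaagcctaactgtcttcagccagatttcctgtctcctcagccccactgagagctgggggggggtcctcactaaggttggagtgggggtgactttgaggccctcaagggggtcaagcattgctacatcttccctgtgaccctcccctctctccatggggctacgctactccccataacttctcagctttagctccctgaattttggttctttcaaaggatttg
Ctsg: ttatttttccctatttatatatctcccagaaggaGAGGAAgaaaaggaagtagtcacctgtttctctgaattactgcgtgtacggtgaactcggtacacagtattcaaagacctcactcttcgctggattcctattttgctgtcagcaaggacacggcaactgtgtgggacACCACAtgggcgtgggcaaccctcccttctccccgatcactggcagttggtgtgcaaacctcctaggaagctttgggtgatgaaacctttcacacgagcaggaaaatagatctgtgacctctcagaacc
Elane: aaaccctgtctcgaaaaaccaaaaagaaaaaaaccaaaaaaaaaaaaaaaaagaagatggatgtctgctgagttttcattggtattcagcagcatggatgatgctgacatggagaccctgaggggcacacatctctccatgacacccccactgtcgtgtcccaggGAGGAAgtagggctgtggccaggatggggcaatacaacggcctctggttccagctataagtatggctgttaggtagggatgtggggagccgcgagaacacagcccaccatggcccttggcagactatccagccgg
GAGGAA occurred 2 times in the Mpo window and 1 time each in the Ctsg and Elane windows, and in 28.3% of 27025 RefSeq promoter windows of the same length. TGTGGT, which shares no bases with GAGGAA in these windows, occurred only in the Ctsg window of the 3, as ACCACA, and in 16.9% of all windows. The C/EBP-type pattern TTNNGNAA, on either strand, had 0 matches in the 3 windows and was found in 40.7% of all windows. A match is a run of letters and not a shown binding site.

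Of the rule genes, Mpo and Ctsg were far above the level in cells under 2 and Elane was low. The rule used these 3 genes, so their values are a description. Mpo (mm10 chr11:87793581-87804413) stood at 358 CPM in the members, 22.6 CPM in cells under 2 and 4543 CPM in cells at 20 or more. Ctsg (chr14:56099881-56102574) stood at 181 CPM in members, 5.56 CPM in cells under 2 and 3126 CPM in cells at 20 or more. Elane (chr10:79886247-79888215) stood at 15.3 CPM in members, 5.82 CPM in cells under 2 and 4818 CPM in cells at 20 or more. The T and natural killer (NK) cell cluster of the library, which should lack elastase, had 12.8 CPM of Elane. The cluster led by Igkc, with dendritic genes, had 15.5 CPM and the erythroid cluster 10.0 CPM. These clusters were taken whole, with the 7, 11 and 2 members in them and 1 cell at 20 or more in the Igkc cluster. Their levels without such cells were not computed, so part of each level can come from cells that the rule chose. Mpo in those clusters was 26.2, 44.3 and 15.8 CPM, and Ctsg was 14.2, 29.99 and 10.8 CPM, far under the members' levels. The members held 23.4 Mpo UMIs for each Elane UMI, against 3.88 in cells under 2 and 0.943 in cells at 20 or more.

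The members were mixed in which rule gene they carried. Mpo with Ctsg was the commonest pattern, in 204 members, followed by Mpo alone in 140 and all 3 genes in 56. Mpo with Elane was found in 34 members, Elane with Ctsg in 13, Ctsg alone in 12 and Elane alone in 9, and 83 members held more Ctsg than Mpo UMIs. Thinned to 5000 UMIs per cell, 330 of 440 members held Mpo, against 8.8% of cells under 2 and 100% of cells at 20 or more. For Ctsg the thinned shares were 40.2% of members, 2.6% of cells under 2 and 99.1% of cells at 20 or more. The thinned Elane shares were 8.9% of members, 3.4% of cells under 2 and 77.4% of cells at 20 or more. They were 7.0% (3.05 to 13.2%) in the T and NK cluster, 3.46% (1.74 to 6.10%) in the erythroid cluster and 3.81% (2.51 to 5.54%) in a stem cell cluster led by Esam, against an interval of 6.38 to 11.9% in the members. For these shares too the clusters were taken whole, with the members in them. The part of free RNA in the members' Elane was not tested. In non-cycling cells Elane stood at 23.6 CPM in members and 5.85 CPM in cells under 2, a ratio of 4.03 (3.13 to 5.15). In cycling cells it stood at 9.11 and 5.95 CPM, a ratio of 1.53 (1.095 to 2.11). Unthinned, 92.7%, 60.9% and 23.9% of the members held Mpo, Ctsg and Elane.

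Membership rested on few molecules in many cells. The median member held 7 UMIs of the rule genes (range 1 to 114), 23 members held 1 and 48 held 2, while 169 held 10 or more. The highest value under the lower limit was 1.99 and the lowest member stood at 2.002, and the highest member stood at 18.8 below a lowest value of 20.3. From 1.5 to under 2 lay 180 cells and from 2 to under 2.5 lay 112, against 23 from 15 to under 20 and 18 from 20 to under 25, so the lower limit cut through a dense stretch and the upper one through a sparse stretch. The lines of points in the plot of granule level against depth are cells with 1, 2, 3 and more rule UMIs.

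**Figure D1:**
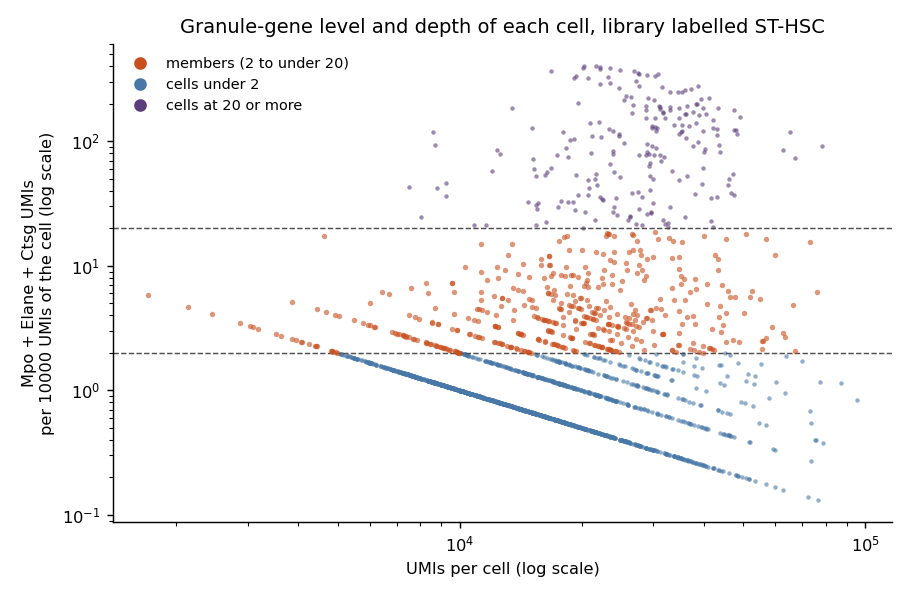
Mpo, Elane and Ctsg UMIs per 10000 UMIs (y axis, log scale) against total UMIs (x axis, log scale) for each cell of the library labelled ST-HSC with at least 1 rule UMI; dashed lines stand at 2 and 20. The 468 members lie between the lines, cells under 2 below and the 217 cells at 20 or more above; 3191 cells under 2 had no rule UMI and are not drawn.

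Against cells under 2, more genes were lower than higher in the members. Of 9094 genes measured (mean of at least 10 CPM over both groups), 165 or 1.81% were higher and 517 or 5.69% were lower, 7.5% in all, with a median log2 ratio of -0.05 over all genes. With every cell thinned to 5000 UMIs and the groups redrawn by the rule on the thinned counts, the counts were 85 and 159. Thinned ratios and calls below use the redrawn groups too. Thinned shares of cells that held a gene or were cycling keep the groups as first drawn. With cells under 2 weighted to the members' makeup of clusters, a setting chosen after seeing the data, the counts were 51 and 190. Of the 25 measured neutrophil granule genes outside the rule, 14 were higher and 2 lower, with a median log2 ratio of 0.62. The list goes beyond granule proteins and includes F13a1 and Rab44. Its genes are known partners of the rule genes and come from the contrast the rule cut, so the count is a description.

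Rab44, a large Rab GTPase of granulocytes and mast cells, had the highest ratio of this list after F13a1 and was spread over many members. It was found in 37.4% of members, 5.22% of cells under 2 and 94.9% of cells at 20 or more (11.8, 1.99 and 47.0% thinned), at 39.4, 4.54 and 127 CPM, a ratio of 8.67 (7.44 to 10.1) over cells under 2. Ccl9, a chemokine of myeloid cells, stood at 60.5 CPM in members and 13.8 CPM in cells under 2, a ratio of 4.37 (3.94 to 4.85), and was found in 52.4% of members and 13.8% of cells under 2 (26.6 and 6.03% thinned). Cst7, the cathepsin inhibitor cystatin F, stood at 25.9 CPM in members and 6.78 CPM in cells under 2, a ratio of 3.82. Prtn3, the granule gene next to Elane on chromosome 10, was already broad, in 95.5% of members and 85.5% of cells under 2 (85.2 and 71.4% thinned), at 525 and 318 CPM, a ratio of 1.65 (1.60 to 1.70). Plac8, a small cysteine-rich protein of myeloid progenitors, had a median of 7.60 per 10000 UMIs in members (lowest 0, highest 42.6) and 3.61 in cells under 2 (0 to 49.2). The ranges of single cells overlapped throughout for these genes.

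F13a1, the A subunit of coagulation factor XIII, had the highest ratio outside the rule but sat in few cells. Its level was 20.5 CPM in members and 0.947 CPM in cells under 2, a ratio of 21.6 (16.2 to 29.2), yet only 40 members held it and 1 member held 41.6% of its UMIs. Without the top cell of each group the ratio was 13.2. Ly6c2, which encodes the surface protein Ly6C, stood at 18.4 CPM in members and 10.8 CPM in cells under 2, with 79.0% of the members' UMIs in 1 cell. Prg2, eosinophil major basic protein, stood at 18.9 CPM in members and 6.39 CPM in cells under 2, with 94.1% in 1 cell and a ratio of 1.01 without the top cells. The last 2 values therefore describe single cells.

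Of the 19 measured myeloid transcription factors, 2 were higher and 5 lower than in cells under 2, with a median log2 ratio of -0.21. The higher ones were Cebpa and Zeb2. Cebpa, the factor of granulocyte and monocyte commitment, stood at 17.3 CPM in members and 6.89 CPM in cells under 2, a ratio of 2.51 (2.09 to 2.99), and was found in 26.1% of members and 8.91% of cells under 2 (9.77 and 3.398% thinned). Spi1, which encodes PU.1, was near level at 157 CPM in members and 148 CPM in cells under 2. Gfi1, a repressor needed for neutrophil development, stood at 16.7 CPM in members and 20.2 CPM in cells under 2, and Gata2 at 47.8 and 53.0 CPM. The lower factors included Id2, an inhibitor of helix-loop-helix factors, at 21.5 CPM in members and 66.5 CPM in cells under 2, with 15.1% of the members' UMIs in 1 cell. Its log2 ratio was -1.63, but 0.31 without the clusters led by Igkc, Skap1, Mcpt2 and Slc25a21, a setting chosen after seeing the data. These are called the mature-type clusters below. The name is loose for the Slc25a21 cluster, which is erythroid with Car1 and Klf1 and had a median of 1.34% of thinned UMIs from S and G2/M phase genes. Ets1 and Irf5 were also lower, at 10.0 and 10.1 CPM in members and 23.4 and 19.6 CPM in cells under 2.

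Among 20 measured myeloid cytokine and surface receptors, 3 were higher and 1 lower. The higher ones included Cd48, at 147 CPM in members and 65.8 CPM in cells under 2, and Cd244a, a SLAM family receptor that binds CD48, at 45.0 and 27.4 CPM. Cd48 was found in 79.5% of members and 41.4% of cells under 2 (47.5 and 22.1% thinned). The lower one was Ccr2, a monocyte chemokine receptor, at 10.9 CPM in members and 26.9 CPM in cells under 2, a log2 ratio of -1.31, but 1.204 without the mature-type clusters. Csf1r, the receptor of macrophage colony-stimulating factor, was too low to be counted, at 6.39 CPM in members and 1.40 CPM in cells under 2, a ratio of 4.57 (3.27 to 6.37). Csf3r, the receptor of granulocyte colony-stimulating factor, stood at 94.1 CPM in members and 79.9 CPM in cells under 2, and Flt3, a receptor of multipotent progenitors, at 242 and 284 CPM. Kit stood at 208 CPM in members and 240 CPM in cells under 2. Cd34 differed little: 3.18 per 10000 in the median member (0 to 11.4) and 2.35 in the median cell under 2 (0 to 14.3), with summed levels 1.28-fold apart.

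Stem cell genes were lower in the members but far from absent. Of 31 measured HSC identity genes, 0 were higher and 24 lower than in cells under 2, with a median log2 ratio of -0.81, and the list summed to 5932 CPM in members and 8957 CPM in cells under 2. Mecom, a zinc finger factor of HSCs, had a median of 5.06 per 10000 in members (0 to 35.4) and 9.32 in cells under 2 (0 to 86.3). Hlf, a bZIP factor of HSCs, had medians of 2.20 (0 to 29.3) and 5.39 (0 to 83.4), and was found in 87.8% of members and 87.9% of cells under 2. Thinned, the Hlf shares were 62.3% (57.6 to 66.8%) of members and 80.8% (79.6 to 81.96%) of cells under 2. The groups overlapped for both genes. Procr, which encodes the endothelial protein C receptor, stood at 14.4 CPM in members and 35.4 CPM in cells under 2, and Ly6a, which encodes Sca-1, at 175 and 291 CPM. Mill2, Mmrn1 and Esam were 2.95-fold, 2.93-fold and 2.48-fold lower in members than in cells under 2.

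Genes of other lineages were mostly lower or level. Among 15 measured lymphoid progenitor genes 0 were higher and 6 lower, including Gimap6, a GTPase of lymphocytes, at 126 CPM in members and 243 CPM in cells under 2, while Satb1, a chromatin organiser of lymphoid priming, stood at 194 and 147 CPM. Among 10 megakaryocyte genes 1 was higher, Selp (P-selectin) at 13.6 CPM in members and 7.62 CPM in cells under 2, and 3 were lower. Of 10 erythroid genes, Car1 of the rule among them, 7 were lower and 0 higher. Hba-a1 and Hbb-bs stood at 1.01 and 1.93 CPM in members and 24.0 and 52.4 CPM in cells under 2, and 1 cell under 2 held 56.8% of that group's Hbb-bs UMIs.

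Most MHC class II genes, which present antigen, were also lower, by an amount that depended on the cells under 2 counted. Of 10 measured MHC class II genes 7 were lower and 0 higher, with summed levels of 1893 CPM in members and 3877 CPM in cells under 2. The cluster led by Igkc, with dendritic genes, held 11 members and 293 cells under 2. The list's median log2 ratio was -0.93. It was -0.37 without the mature-type clusters, -0.38 thinned with the groups redrawn, and -0.26 with cells under 2 weighted to the members' makeup of clusters. These alternatives were all short of 1.5-fold. Inside the histone, S phase and G2/M clusters Cd74 in members was 0.81, 0.78 and 0.77 of its level in cells under 2. Cd74, the invariant chain, had a median of 2.19 per 10000 in members (0 to 228) and 4.78 in cells under 2 (0 to 391), and its activator Ciita stood at 19.6 CPM in members and 46.3 CPM in cells under 2. Of 28 interferon-induced genes 7 were lower and 0 higher (median -0.38, short of 1.5-fold), including Iigp1, an immunity-related GTPase, at 123 CPM in members and 223 CPM in cells under 2, and Irf7 at 13.5 and 25.3 CPM. Of 20 immediate early genes 5 were lower and 0 higher, among them Klf6 at 48.2 CPM in members and 85.2 CPM in cells under 2. Klf2 stood at 23.9 CPM in members and 40.5 CPM in cells under 2.

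Biosynthetic genes shifted by less than the limit for a call. The 32 ribosome biogenesis genes had a median log2 ratio of 0.33 over cells under 2 with 0 past 1.5-fold in either direction, led by Nhp2, a protein of box H/ACA snoRNPs, at 187 CPM in members and 128 CPM in cells under 2. The 52 nuclear respiratory chain genes had a median of 0.23 with 1 higher, Ndufa4, at 898 CPM in members and 584 CPM in cells under 2. The 26 endoplasmic reticulum chaperone and secretory genes had a median of 0.16 with 1 higher, Calr (calreticulin), at 608 CPM in members and 405 CPM in cells under 2. Glycolysis genes had a median of 0.15, with 1 of 19 higher, Pgam1, and 1 lower, Ldhb.

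**Figure D2:**
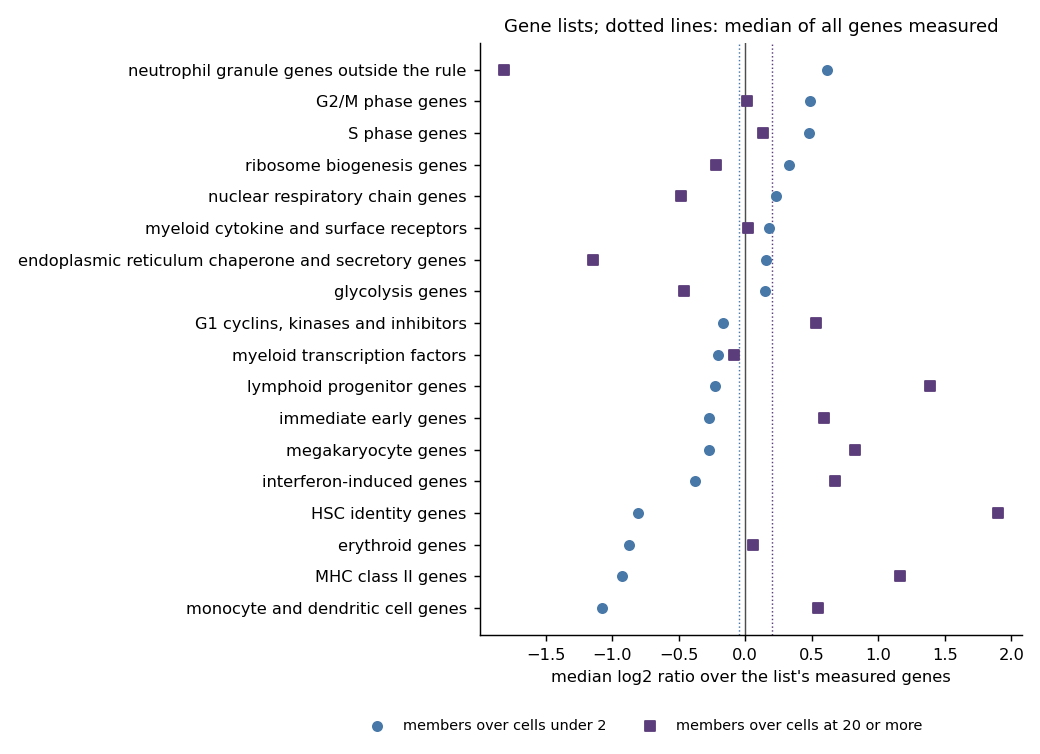
Median log2 ratio over the measured genes of each list, for members over cells under 2 (circles) and members over cells at 20 or more (squares), with dotted lines at the medians of all genes, -0.05 and 0.20. Neutrophil granule genes outside the rule lie at 0.62 and -1.81, and HSC identity genes at -0.81 and 1.90.

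Against cells at 20 or more, the members held far less granule and secretory RNA and far more stem and lymphoid progenitor RNA. Of 8664 genes measured, 2039 or 23.5% were higher and 554 or 6.39% lower, 29.9% in all, with a median log2 ratio of 0.20 over all genes. The split depended on the scaling: with TMM factors 1197 were higher and 1137 lower, every ratio moving by -0.22 on the log2 scale, and with the median of ratios 1062 were higher and 1361 lower, a move of -0.27. Of 31 measured granule genes outside the rule 28 were lower and 0 higher, with a median log2 ratio of -1.81. The 16 mature neutrophil genes, 4 of them at 0 in the members, summed to 107 CPM in members, 96.3 CPM in cells under 2 and 985 CPM in cells at 20 or more. Ms4a3, a membrane protein of granulocyte-monocyte progenitors, stood at 10.7 CPM in members and 878 CPM in cells at 20 or more, S100a8 at 4.26 and 662 CPM, and Cebpe, a factor of late granule genes, at 1.22 and 79.2 CPM. Hp (haptoglobin) stood at 2.23 CPM in members and 215 CPM in cells at 20 or more, and Trem3 at 0.812 and 81.9 CPM.

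The chaperone and secretory list had 20 of 26 genes lower than in cells at 20 or more, median -1.15, including Sdf2l1 at 53.7 CPM in members and 227 CPM in cells at 20 or more and Calr at 608 and 1720 CPM. On the other side, 18 of 20 measured HSC identity genes were higher and 0 lower, median 1.90, with Mecom at 602 CPM in members and 133 CPM in cells at 20 or more and Hlf at 312 and 83.2 CPM. Of 12 lymphoid progenitor genes 10 were higher and 0 lower, median 1.39, and Flt3 stood at 242 CPM in members and 65.9 CPM in cells at 20 or more. Cd34 was 1.80-fold (1.68 to 1.92) higher in members. Bach2, a repressor of myeloid genes in lymphoid progenitors, stood at 130 CPM in members and 25.4 CPM in cells at 20 or more, and Hes1, a Notch target, at 28.0 and 3.35 CPM.

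For each of the 79 genes at least 4-fold higher in cells at 20 or more than in cells under 2, the members' level was placed on the step from the one to the other, with 0% at cells under 2 and 100% at cells at 20 or more. The median place was 5.13% (quartiles 0.901 and 12.1%), 39 genes lay under 5% and 1 lay over 50%. The rule fixes low places on this linear scale: Mpo lay at 7.43%, Ctsg at 5.63% and Elane at 0.198%. The gene over 50% was Ccl9, at 53.6%, and Ms4a2, Cpa3, Cebpa and Rab44 followed at 41.6, 41.3, 29.95 and 28.4%. The places of Ms4a2 and Cpa3 depended on a cluster led by Prss34, Mcpt8 and Cpa3. Outside that cluster Ms4a2 stood at 3.17 CPM in members and 1.02 CPM in cells at 20 or more, and Cpa3 at 19.5 and 33.2 CPM. Plac8 lay at 17.2%, F13a1 at 8.95%, Prtn3 at 4.50%, Cebpe at 0.974%, Ms4a3 at 0.786% and S100a8 at -0.175%. A low place can go with a large ratio: Ms4a3 stood at 10.7 CPM in members and 3.79 CPM in cells under 2, and Cebpe at 1.22 and 0.451 CPM.

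The members were also divided along the rule value, into 175 cells from 2 to under 3, 147 from 3 to under 5, 94 from 5 to under 10 and 52 from 10 to under 20. Elane stood at 14.2, 14.4, 11.8 and 25.2 CPM over these steps, then 221 CPM from 20 to under 50 and 6515 CPM at 50 or more. Ctsg stood at 46.0, 91.4, 240 and 601 CPM and Mpo at 181, 282, 446 and 808 CPM, an order that the rule itself sets. Their ratio moved too, with 3.93 Mpo UMIs per Ctsg UMI in the lowest step and 1.34 in the highest.

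Genes that the rule did not use followed the steps in different ways. F13a1 stood at 1.47, 7.53, 28.9 and 79.9 CPM. A large part of the members' F13a1 UMIs sat in a single member, and the steps were not recomputed without it, so this climb can rest on that cell. Rab44 stood at 14.7, 31.8, 60.1 and 82.7 CPM and Cebpa at 14.2, 15.8, 19.9 and 23.8 CPM. Ms4a3 stood at 5.60, 9.59, 19.4 and 11.9 CPM and reached 129 CPM only from 20 to under 50. Hlf was already at 401 CPM from 2 to under 3, against 672 CPM in cells with no rule UMI, and then 265, 275 and 254 CPM, with 133 and 64.7 CPM in the 2 steps above the members. Flt3 changed little inside the members, 251, 254, 237 and 205 CPM. Cd48 was highest from 10 to under 20, at 180 CPM, and stood at 96.0 CPM at 50 or more.

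**Figure D3:**
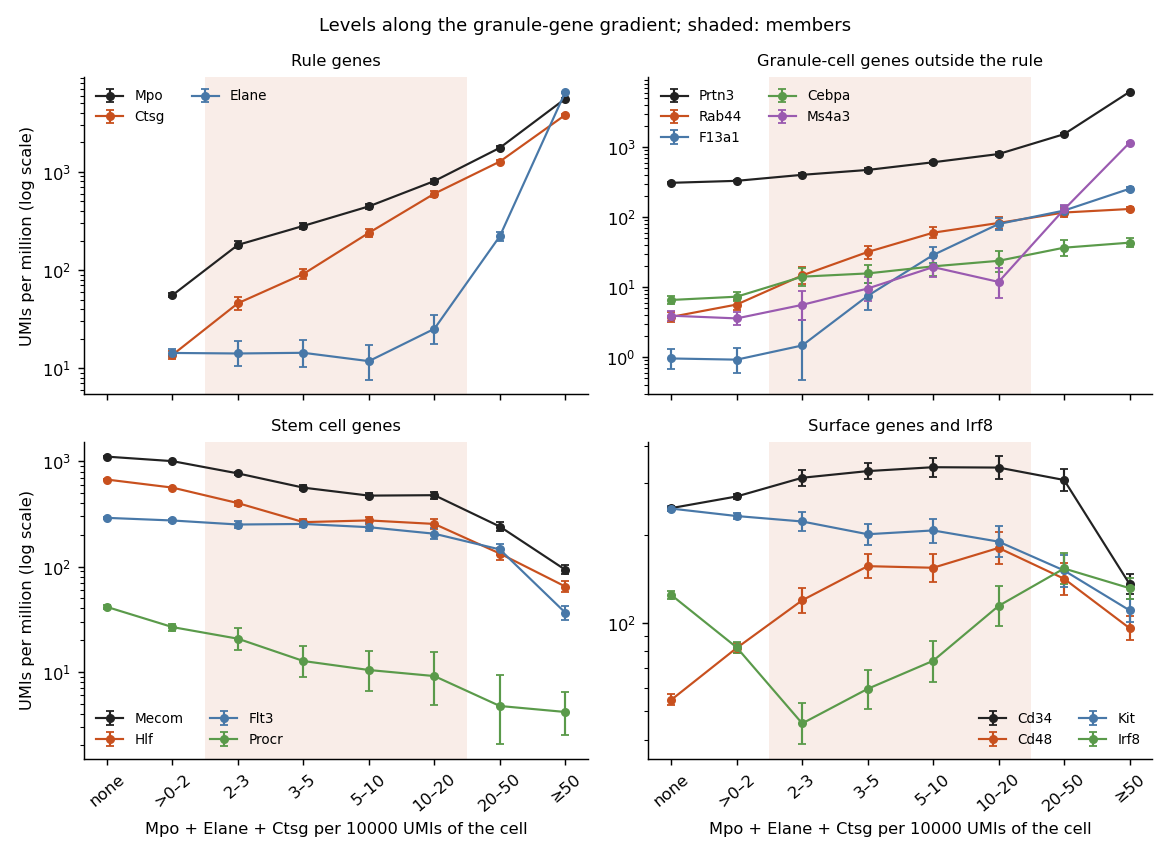
Summed level (CPM, log scale) of 16 genes in cells grouped by their Mpo, Elane and Ctsg UMIs per 10000, with exact Poisson 95% intervals; the shaded steps are the members and a step with 0 UMIs is not drawn. Elane stays between 11.8 and 25.2 CPM in the members and reaches 6515 CPM at 50 or more, while Mpo and Ctsg climb throughout.

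Only 11 of 8519 genes measured in both comparisons, 0.129%, were higher in the members than in both other groups, and 12, 0.141%, were lower than in both. The list of 8 named genes, ranked by the smaller of the 2 ratios, included C77080, at 38.3 CPM in members, 18.9 CPM in cells under 2 and 8.62 CPM in cells at 20 or more, and Pdgfrb, a platelet-derived growth factor receptor, at 23.8, 11.8 and 12.6 CPM. Bcl2, the survival factor, stood at 224 CPM in members, 130 CPM in cells under 2 and 139 CPM in cells at 20 or more, and Auts2, a transcription regulator, at 264, 130 and 173 CPM. These calls depended on the processing: 4 of the 8 named genes stayed past 1.5-fold against both groups with TMM factors (C77080, Pdgfrb, Cd244a and Kntc1), 3 with the median of ratios and 2 thinned (C77080 and Cd244a), and C77080 was not higher in non-cycling members than in such cells under 2. The others named were Cd244a, Uhrf1, Kntc1 and Lin54, the last 3 with roles in DNA methylation upkeep, the mitotic spindle and cell cycle transcription. Cdk6, the G1 kinase, missed the limit against cells at 20 or more, at 1272 CPM in members, 775 CPM in cells under 2 and 880 CPM in cells at 20 or more. Its median per 10000 UMIs was 11.7 in members (0 to 38.5), 4.72 in cells under 2 (0 to 69.4) and 8.04 in cells at 20 or more (1.32 to 26.7). The genes lowest against both were led by Cxcl9, Ctsh, Ccr2, Slc8b1, Fgl2, Mgst1, Irf8 and Eml5, of which Cxcl9, an interferon-induced chemokine, stood at 31.7 CPM in members, 105 CPM in cells under 2 and 87.3 CPM in cells at 20 or more. Without the mature-type clusters 3 of these 8, Ctsh, Mgst1 and Eml5, stayed past the limit, and thinned 3 did, Cxcl9, Ccr2 and Mgst1.

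**Figure D4:**
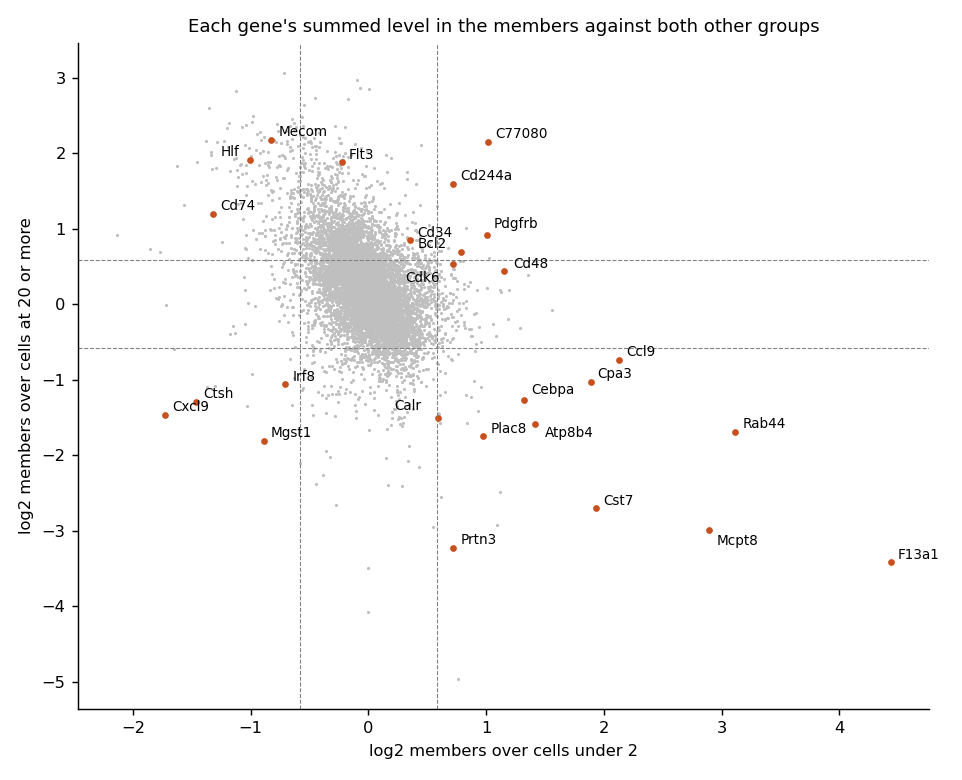
Log2 ratio of summed levels for members over cells under 2 (x axis) and over cells at 20 or more (y axis), 1 point per gene measured in both, without the rule genes, Dntt and Car1; dashed lines mark 1.5-fold. F13a1, Rab44 and Mcpt8 lie to the lower right, between the other groups, Hlf and Mecom to the upper left, and C77080, Pdgfrb and Bcl2 to the upper right, above both.

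More members than cells under 2 reached a 1% limit of cell cycle RNA, while few cells of any group reached a 2% limit. Cells were thinned to 5000 UMIs, which left out 28 members and 219 cells under 2, and a cell was called cycling if 1% or more of the thinned UMIs came from S and G2/M phase genes. By this measure 229 of 440 members were cycling, 52.0% (47.3 to 56.8%), against 24.3% (23.1 to 25.6%) of cells under 2 and 50.7% (43.8 to 57.5%) of cells at 20 or more. Unthinned, the shares were 51.3% of members, 23.7% of cells under 2 and 53.0% of cells at 20 or more. At a limit of 2% the shares were 1.36% (0.50 to 2.94%) of members, 2.29% (1.87 to 2.77%) of cells under 2 and 0% (up to 1.69%) of cells at 20 or more. The members' share rests on 6 cells, and its interval overlapped both others, so no order is shown for the members. The 90th percentile was 1.58% in members and 1.56% in cells under 2, and 98 of the 440 members lay near the limit, between 0.8 and 1.2%. Over cells under 2, 7 of 39 S phase genes were higher and 0 lower (median 0.48), led by E2f8, Rrm2 and Uhrf1, and 11 of 43 G2/M genes were higher and 0 lower (median 0.49), led by Aurkb at 59.9 CPM in members and 32.1 CPM in cells under 2. Of 24 G1 genes Cdk6 alone was higher and 4 were lower, among them Cdkn1c, the inhibitor p57, at 7.71 CPM in members and 12.9 CPM in cells under 2. Along the rule value the share was 18.7% in cells with no rule UMI and 35.9% in those above 0 and under 2, then 49.1, 50.7, 53.3 and 62.7% in the steps of the members. These steps also differed in depth, with medians of 10588, 15789, 16197, 19389, 19004 and 24906.5 UMIs. Among cells under 2, only those above 5000 UMIs can hold a rule UMI. The part of depth in the shares was not tested.

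Hlf, Cd48, Rab44 and F13a1 differed from cells under 2 in the same direction in cycling and in non-cycling cells. The split did not level the cell cycle between the groups. Among non-cycling cells Mki67 was 1.92-fold (1.69 to 2.19) and Aurkb 2.42-fold (1.75 to 3.29) higher in members, and the S and G2/M lists had median log2 ratios of 0.68 and 0.99. Among cycling cells the ratios of Mki67 and Aurkb were 0.81 and 1.10. Hlf stood at 250 CPM in cycling members and 499 CPM in cycling cells under 2, and at 390 and 697 CPM in those not cycling. Cd48 stood at 154 CPM in cycling members and 75.1 CPM in cycling cells under 2, and at 137 and 61.1 CPM in those not cycling. Rab44 was 6.15-fold (4.89 to 7.77) higher in cycling members and 12.2-fold (9.89 to 15.1) higher in members not cycling. F13a1 was 27.5-fold (17.8 to 44.0) higher in cycling members and 6.56-fold (3.64 to 11.5) higher in those not cycling, and without the member with most F13a1, a cycling cell, the first ratio was 14.1 (8.92 to 23.2). C77080 was 2.67-fold higher in members among cycling cells and stood at a ratio of 0.93 among those not cycling.

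Clustered without the rule genes, the members did not form a cluster of their own. Of 18 Leiden clusters, the members lay mostly in 3 cell cycle clusters: 132 (28.2%) in one led by the histone genes Hist1h1a and Hist1h1b, 109 (23.3%) in an S phase cluster led by Ung and Hells, and 55 (11.8%) in a G2/M cluster led by Pimreg and Cenpf. Cells under 2 had 9.28, 9.497 and 7.92% of their cells in these clusters. In contrast, 71.0% of cells at 20 or more lay in a cluster led by Ms4a3 and S100a8, which held 2 members and 0 cells under 2. A cluster led by Esam and Lhcgr held 7.48% of members and 14.7% of cells under 2, and one led by Dlg2 and Nbea held 1.92 and 9.71%.

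**Figure D5:**
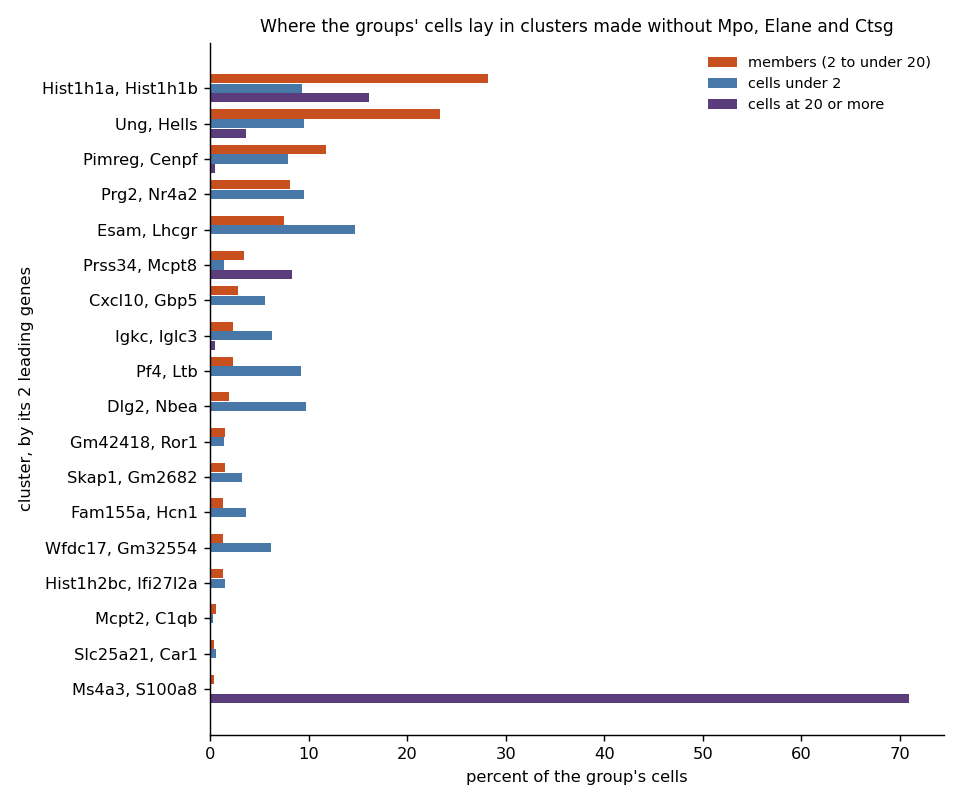
Percent of the members, of cells under 2 and of cells at 20 or more in each Leiden cluster, clusters named by their 2 leading genes and ordered by number of members. The members are spread over the cell cycle clusters led by Hist1h1a, Ung and Pimreg, while 71.0% of cells at 20 or more lie in the cluster led by Ms4a3.

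Basophil and mast cell RNA was highest in few members but was not limited to them. Of 4 measured basophil, mast cell and eosinophil genes 3, Mcpt8, Cpa3 and Prg2, were higher than in cells under 2, Prg2 through a single member as given above. The 14 listed genes summed to 191 CPM in members, 90.4 CPM in cells under 2 and 725 CPM in cells at 20 or more, with Prss34 and Grm6 at 0 in the members. Mcpt8, a basophil protease encoded near Ctsg on chromosome 14, was found in 56 members and stood at 20.8 CPM in members and 2.80 CPM in cells under 2, and Cpa3, a mast cell carboxypeptidase, at 62.4 and 16.9 CPM. A cluster led by Prss34, Mcpt8 and Cpa3 held 16 members, 66 cells under 2 and 18 cells at 20 or more. Its 16 members had 1146 CPM of Cpa3, 373 CPM of Mcpt8 and 269 CPM of Ms4a2, but 0 Prss34 UMIs. In the other 452 members Cpa3 was at 19.5 CPM, Mcpt8 at 6.86 CPM and Ms4a2 at 3.17 CPM, against 5.82, 0.427 and 0.473 CPM in the cells under 2 outside that cluster. The cells at 20 or more outside it had 33.2, 22.9 and 1.02 CPM. Only 47, 48 and 6 of these 452 members held Cpa3, Mcpt8 and Ms4a2. Rab44 in those 452 members was at 34.6 CPM and F13a1 at 20.8 CPM. The 83 members with more Ctsg than Mpo had more of this RNA, with Cpa3 at 164 CPM and Mcpt8 at 67.6 CPM, against 38.5 and 9.78 CPM in the other members.

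Monocyte and dendritic genes were lower in the members as a whole, but the sign for Irf8 and some other genes depended on which cells under 2 were counted. Of 17 measured monocyte and dendritic genes 12 were lower and 1, Ly6c2, was higher than in cells under 2, and the list summed to 2182 CPM in members and 4307 CPM in cells under 2. The Ly6c2 level came mostly from 1 member, and its log2 ratio was -1.47 in non-cycling cells. Cd74, H2-Aa, H2-Ab1 and H2-Eb1 stand both in this list and in the MHC class II list. A cluster led by Igkc, Iglc3 and Plbd1, with dendritic genes such as Naaa and Zfp366, held 11 members and 293 cells under 2, and its Irf8 level was 1288 CPM. Irf8, a factor of monocytes and dendritic cells, stood at 65.8 CPM in members, 107 CPM in cells under 2 and 137 CPM in cells at 20 or more, and was found in 39.5% of members and 21.2% of cells under 2, or thinned in 15.5% (12.2 to 19.2%) and 12.5% (11.6 to 13.5%). Inside the histone cluster it stood at 50.7 CPM in members and 16.1 CPM in cells under 2, a ratio of 3.16 (2.55 to 3.91), and inside the S phase and G2/M clusters the ratios were 2.52 and 2.62. Without the mature-type clusters the log2 ratio of Irf8 was 1.47. The sign also changed for Ccr2 (1.204), Id2 (0.31), Lgals3 (0.19) and Naaa (0.0489), while Cd74 stayed lower at -0.63. Along the rule value Irf8 had a low from 2 to under 3, at 45.4 CPM, and then stood at 59.6, 74.3 and 114 CPM.

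Immunoglobulin, dendritic and T cell genes were among the lowest against cells under 2, and some sat in single cells of that group. Iglc3 stood at 0.304 CPM in members and 66.7 CPM in cells under 2, where 1 cell held 98.8% of its UMIs, and Igkc at 4.57 and 216 CPM, where 1 cell held 50.4%. Jchain stood at 0.507 CPM in members and 23.3 CPM in cells under 2, Plbd1 at 14.8 and 65.1 CPM, Lgals3 at 10.3 and 43.6 CPM and Naaa at 13.8 and 49.96 CPM. A T and NK cluster led by Skap1 held 7 members and 148 cells under 2, and Skap1 itself stood at 3.25 CPM in members and 18.0 CPM in cells under 2. Of 7 measured T, NK and innate lymphoid genes 5 were lower and 1, Nkg7, which stands in the granule list too, was higher, the list summing to 307 CPM in members and 347 CPM in cells under 2.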

How the data were processed

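The data are 2 droplet single-cell libraries, 1 per gate. The authors deposited matrices of raw UMI counts over 32285 genes, made on mm10 with Cell Ranger 7.2 per the submitters' processing notes and written by Cell Ranger 7.1.0 per the file headers. No annotation of cells was used. Of 7586 ST-HSC barcodes 938 were left out, 703 with under 1000 genes and 770 with 10% or more mitochondrial UMIs. The members, gene lists and tests were chosen with earlier results of these data known.

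UMI counts were summed per group of cells and divided by the group's total. Intervals at 95% are exact: conditional binomial (Clopper-Pearson) for ratios and shares, Poisson for CPM. Where nothing was counted, the limit given is 3 counts. Cells are not replicates, so no p-value was computed. Named were the rule genes, Cd34, Dntt and Car1, the 10 highest and 10 lowest ratios of each comparison among genes reaching 20 CPM in a group, up to 4 genes of each list, the 8 highest and 8 lowest against both groups, a fixed set of progenitor genes, and the 5 leading genes of each cluster. Symbols of unnamed gene models were passed over. Some genes that the rule names are not reported here.

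Clusters came from scanpy 1.11.5 and leidenalg 0.10.2 on 2000 variable genes without Mpo, Elane and Ctsg, 30 principal components, 15 neighbours and resolution 0.8. Scrublet's automatic limit marked 0 cells and was taken as failed, so the 402 cells with the highest scores were left out as an alternative; 8.76% of members, 5.44% of cells under 2 and 6.45% of cells at 20 or more were among them. TMM factors came from edgeR 4.0.16. The ratio and its interval were tested on simulated data. The alternatives were other scalings, filters, rule limits, resolutions, thinning and subsets of cells.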

Additional observations from a re-analysis of the deposited data

Results flagged for a closer look

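Of the 938 barcodes of the library labelled ST-HSC that were left out for few genes or a high mitochondrial share, 13.75% held Mpo, Elane and Ctsg at 2 to under 20 per 10000 UMIs. They had a median of 991.5 UMIs, so that 1 UMI of these genes put a typical one above the lower limit. These barcodes entered no comparison, and the same range took 535 of the 6648 kept cells before the Dntt and Car1 limits. In the library labelled LT-HSC 0 kept cells met the rule.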

How the results depend on the processing

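Genes higher and lower than in cells under 2 numbered 1990 and 7476 with no filter on low values, 85 and 159 with cells thinned to 5000 UMIs, 106 and 330 with no Dntt and Car1 limits in the other groups, and 51 and 190 with cells under 2 weighted to the members' makeup of clusters. The higher genes numbered 296 with the median of ratios, 311 with the mean over cells and 264 in non-cycling cells. Against cells at 20 or more the higher and lower genes numbered 7268 and 2805 with no filter, 1197 and 1137 with TMM factors, and 1062 and 1361 with the median of ratios, and 908 were lower with thinning. The members' share of the library was 15.9% with thinning, where the groups were redrawn and 1 UMI in 5000 meets the rule. It was 4.41% with a lower limit of 3 and 6.26% with an upper limit of 10. At a cycling limit of 2% the shares were 1.36% of members, 2.29% of cells under 2 and 0% of cells at 20 or more.

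Some single genes changed sign; apart from the settings' own construction, the cause was not tested. Over cells under 2, Slc25a21 had a log2 ratio of 0.0708 with the mean over cells, 0.14 thinned, 0.35 in non-cycling cells, 0.19 without the mature-type clusters and 0.24 weighted. Hp stood at -1.02 with the mean over cells and -1.40 thinned. Thinned values, with the groups redrawn, were 0.38 for Ighm, 7.65 for Iglc3, 1.40 for Jchain, -0.67 for Trem3 and -0.64 for Ly6c2. Without the highest Scrublet scores Prg2 stood at -3.41 and Ighm at 0.10. In non-cycling cells C77080 stood at -0.10 and Ly6c2 at -1.47. Without the mature-type clusters the values were 0.31 for Id2, 1.204 for Ccr2, 0.19 for Lgals3, 0.0489 for Naaa, 0.34 for Ighm, 0.0746 for Iglc3 and 1.47 for Irf8. Weighted values were -0.0183 for Rad51ap1, -0.0574 for Kntc1 and 0.27 for Irf8.

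Over cells at 20 or more, Iglc3 stood at 1.03 with the mean over cells, Pdgfrb at -0.0015 and Auts2 at -0.39 thinned, and Slc25a21 at -1.93 with no Dntt and Car1 limits in the other groups. Without the mature-type clusters Plbd1 stood at -2.65, Naaa at -0.79, Xcr1 at -3.19 and Zfp366 at -1.93. Among values for single genes and lists, 3730 moved by less than their interval or tolerance and 1204 moved by more. A change of sign was counted only for values at 1.5-fold or more as reported, and 34 of these changed sign. Smaller values that changed sign are among the others. The weighting, the removal of the mature-type clusters and that of the Prss34 and Mcpt8 cluster were chosen after seeing the data. No paired analysis was possible because each group is 1 library or a part of it. With 1 library, leaving out a replicate could not be done, and intervals cover counting error only.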
